A study of Arabidopsis thaliana with 14 samples.

Results

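The genes described are 7 members of the SNF2 family of chromatin remodelers of Arabidopsis thaliana, CHR17, CHR18, CHR23, CHR24, chr31, CHR34 and CHR40, with SWI3A, a core subunit of SWI/SNF remodeling complexes, and HDA15, a histone deacetylase. They were taken by symbol from the platform's gene table, using probe sets that name 1 gene. These 9 genes had 10 of the 22810 probe sets on the array, 1 for each gene and 2 for chr31. All 10 passed the filter on low values described with the processing.

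SNF2 proteins use the energy of ATP to slide, evict or exchange nucleosomes, and so change which DNA sequences other proteins can reach. In plants the family has branches with separate tasks. CHR23, also called MINU2, is the ATPase of a SWI/SNF complex of which SWI3A is a scaffold subunit, and CHR17 is an ISWI remodeler that spaces nucleosomes along genes. The proteins of chr31 and CHR40, also called CLSY3 and CLSY4, guide RNA polymerase IV to the loci where small interfering RNAs are made for DNA methylation, a pathway that is active in seeds. HDA15 removes acetyl groups from histones and is known in seedlings as a partner of the light-signalling factor PIF3.

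Transcripts were measured on 14 Affymetrix ATH1 arrays in seeds of genotype Ws-0, a natural accession, holding linear-cotyledon embryos 175 ± 11 µm long, from siliques of 1.6 to 1.9 cm on plants aged 38 to 46 days. Whole seeds and 6 compartments had 2 biological replicates each: the chalazal and general seed coat, which are maternal, the chalazal, cellularized and micropylar endosperm, and the embryo proper. Each was cut by laser from paraffin sections after fixing in ethanol and acetic acid, and 2 to 5 ng of RNA was amplified for each array. The labels do not say how many seeds or plants were pooled in a replicate, and all p-values therefore rest on the spread between these arrays alone. For the micropylar endosperm the labels conflict: the description says whole seeds, the title and source say micropylar endosperm, and the title was followed. The design text also lists the micropylar endosperm in 2 places and leaves out the chalazal endosperm, which titles and sources name. On the arrays titled micropylar endosperm EXPA4 measured 5873 to 6967, against 783.6 to 2389 in whole seeds. It was the only 1 of 3 listed micropylar endosperm markers with a probe set of its own. The embryo markers YAB3 and BBM summed to 122.5 to 181.6 on the arrays titled micropylar endosperm, against 881 to 888.7 in whole seeds. Most of this gap came from YAB3, which averaged 18.69 against 694.2, while BBM averaged 133.4 against 190.6. Several markers were chosen with earlier results of these data known, so these levels do not by themselves settle the label.

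Levels are signal intensities per probe set on a linear scale, each array scaled by the authors to a trimmed mean of 500. A change is a difference of log2(value + 16), given with its SE. It counted as called where limma's p, adjusted by Benjamini-Hochberg, was below 0.05 and the size at least 2-fold. Levels of different probe sets cannot be set against each other. With 2 arrays in a group, the number of arrays limits the precision. Array medians ran from 107 to 183, and replicate arrays correlated with Pearson r from 0.851 to 0.914 across probe sets, which are not independent replicates. Of 41 marker genes 15 had a probe set of their own, several chosen with earlier results of these data known. The embryo markers YAB3 and BBM summed to 2724 to 2863 on embryo arrays and to at most 181.6 on other compartment arrays. The seed coat markers BAN and DFR summed to 14630 to 15580 in the chalazal and 7185 to 8436 in the general seed coat, against 1006 to 1047 in the chalazal endosperm and 18.18 to 917.4 on the other filial arrays. The endosperm markers AGL62, IKU2 and MPC were low on every array, at 26.39 to 180.6 in sum on endosperm arrays and 17.79 to 92.45 on embryo and seed coat arrays, which overlap. The ratio of 3' to 5' control signal grows as RNA is less intact. For GAPDH it was 13.65 and 8.34 in the chalazal endosperm, 3.17 and 2.72 in whole seeds and 3.59 to 7.87 elsewhere. For actin it was 14.79 and 9.01 in the chalazal endosperm and 9.69 to 36.81 elsewhere, and for ubiquitin 8.63 and 8.72 there and 5.36 to 12.02 elsewhere, within or below the range of the other arrays. With arrays scaled to equal medians the median change over all 15951 probe sets tested moved to -0.18 in whole seeds, against 0.22 as deposited, to -0.23 against -0.01 in the general seed coat and to 0.10 against -0.12 in the chalazal endosperm.

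Over the 6 compartments, 7 of the 10 probe sets differed by limma's F test at an adjusted p below 0.05, and 63.5% of all probe sets tested did so. The range between the highest and lowest compartment mean ran from 1.32 for HDA15 to 5.39 for CHR23 on the log2 scale. The median range over all probe sets tested was 2.48. CHR18 (adjusted p = 0.265), CHR34 (adjusted p = 0.17) and HDA15 (adjusted p = 0.194) did not pass.

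**Figure D1:**
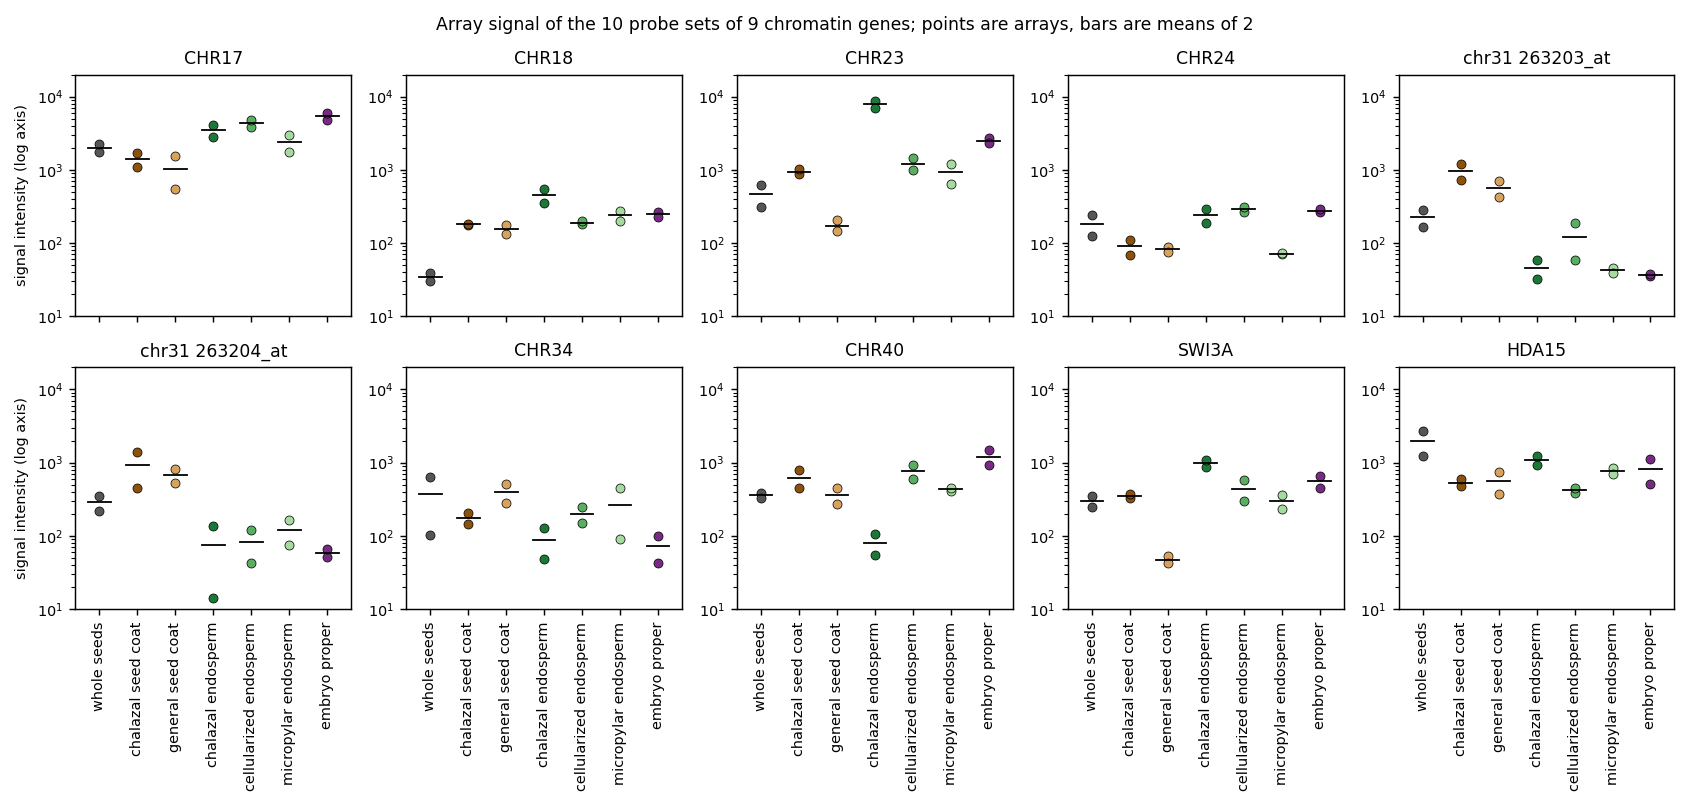
Signal intensity (log axis) of the 10 probe sets on each array, by whole seeds and compartment, with points for arrays and bars for the mean of 2. CHR23 stands at 6969 and 8766 in the chalazal endosperm and at 143.9 and 203.4 in the general seed coat, while both chr31 probe sets are high in the 2 seed coat parts.

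CHR23 and SWI3A, which encode the ATPase and a scaffold subunit of SWI/SNF remodeling, had the same top and the same bottom compartment. CHR23 measured 8766 and 6969 in the chalazal endosperm, 2706 and 2312 in the embryo proper, 1430 and 994.4 in the cellularized endosperm, 880.4 and 1014 in the chalazal seed coat, 1195 and 648.4 in the micropylar endosperm, and 203.4 and 143.9 in the general seed coat. Both chalazal endosperm arrays lay above, and both general seed coat arrays below, every array of the other compartments. Against the mean of the other 5 compartments CHR23 rose by 3.17 (SE 0.33, adjusted p = 7.28e-07), a 9.03-fold change, in the chalazal endosperm. It fell by 3.29 (SE 0.33, adjusted p = 1.36e-06), or 9.77-fold, in the general seed coat.

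SWI3A measured 878.6 and 1084 in the chalazal endosperm, against 452.1 and 658 in the embryo proper and 572.8 and 302.9 in the cellularized endosperm. It stood at 326.7 and 375.4 in the chalazal seed coat, 361 and 236 in the micropylar endosperm, and 52.47 and 42 in the general seed coat. Again both chalazal endosperm arrays were the highest and both general seed coat arrays the lowest of the 12. SWI3A rose by 1.82 (SE 0.40, adjusted p = 0.00152) in the chalazal endosperm and fell by 2.95 (SE 0.40, adjusted p = 4.28e-05), or 7.72-fold, in the general seed coat. These 4 calls of CHR23 and SWI3A held under every alternative run. The general seed coat signals of SWI3A lay below the array medians, 146 and 163, and the size of its fall there ran from -3.29 to -2.28.

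In the order of levels, the distance between the chalazal endosperm and the next compartment, the embryo proper, was called for CHR23 (1.64, SE 0.43, adjusted p = 0.00534) and not for SWI3A (0.82, SE 0.52, adjusted p = 0.23). At the other end, the micropylar endosperm lay above the general seed coat for CHR23 by 2.26 (SE 0.43, adjusted p = 0.00114) and for SWI3A by 2.29 (SE 0.52, adjusted p = 0.00479), where the call of SWI3A ended without micropylar endosperm replicate 1 (2.00, adjusted p = 0.0648). Between these ends, neighbours in the order did not differ beyond their spread for either gene, with adjusted p of 0.108 to 0.892. The embryo proper, second for CHR23, rose by 1.21 (SE 0.33, adjusted p = 0.01) against the other 5, a call that ended without embryo proper replicate 1 (adjusted p = 0.131) and without replicate 2 (0.0676).

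The 2 parts of the seed coat differed in both genes. CHR23 was higher in the chalazal than in the general seed coat by 2.36 (SE 0.43, adjusted p = 0.00102), and SWI3A by 2.54 (SE 0.52, adjusted p = 0.00279). Markers of the chalazal endosperm, RR19, RR23 and UBC31, summed to 845.4 to 6152 on the chalazal seed coat arrays, against 229.7 to 760.6 in the general seed coat and 44630 to 45740 in the chalazal endosperm. The part of these markers' source in the CHR23 and SWI3A levels of the chalazal seed coat was not tested. Over the 14 arrays the log2 levels of CHR23 and SWI3A had Pearson r of 0.89 and Spearman rho of 0.93, and r of 0.68 and rho of 0.81 over the 10 arrays left without the chalazal endosperm and general seed coat. These values describe arrays that share RNA, scaling and quality across both genes.

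Of 33 listed symbols for other subunits and partners of SWI/SNF complexes, 3 genes had a tested probe set. None of these 3 was called in any comparison or by limma's F test, which 63.5% of all probe sets tested passed. These were BSH, the SNF5-type subunit (adjusted p = 0.532), CHC1, a SWP73-type subunit (adjusted p = 0.734), and SWI3D, a relative of SWI3A (adjusted p = 0.501). Their compartment means spanned 1.09, 0.64 and 0.97 on the log2 scale, against 3.98 for SWI3A. In the general seed coat BSH averaged 300.1 ± 49.7, CHC1 904.5 ± 179 and SWI3D 182.7 ± 12.6 (SD, n = 2 each). In the chalazal endosperm BSH averaged 290.6 ± 286, CHC1 1221 ± 49 and SWI3D 258.4 ± 152 (SD, n = 2 each). With replicates of BSH and SWI3D so far apart there, a missing call does not show that their levels were even. Whether SWI3A and SWI3D differ in their response was not tested.

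**Figure D2:**
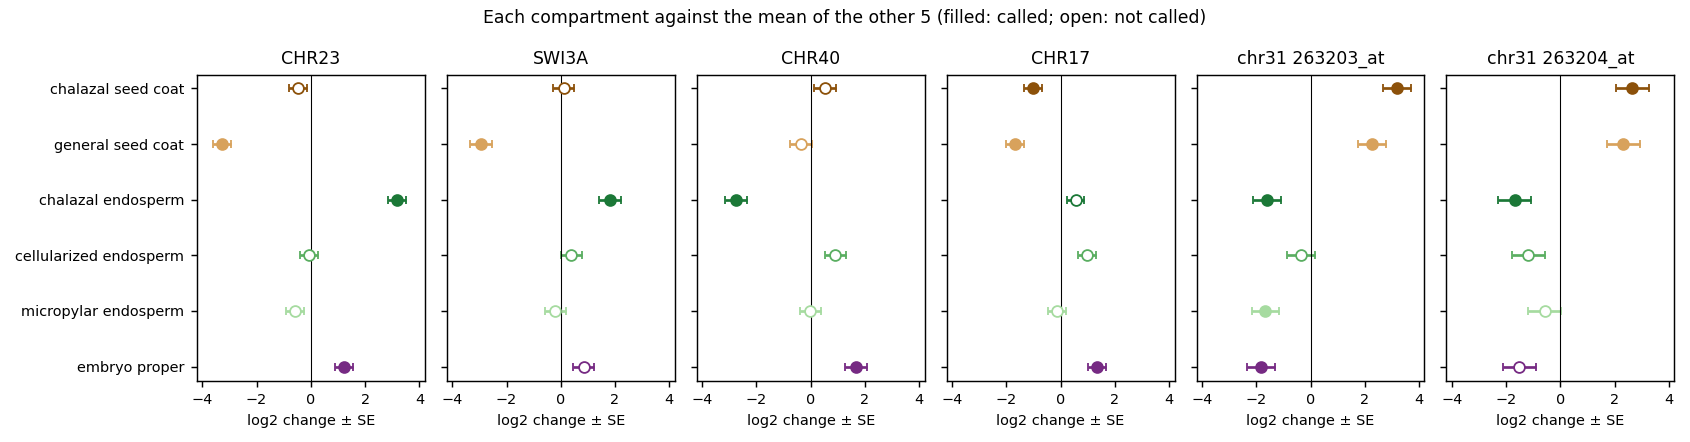
Log2 change of each compartment against the mean of the other 5, with SE as error bars, for 6 probe sets. Filled points were called and open points were not. CHR23 and SWI3A have their lowest point in the general seed coat and their highest in the chalazal endosperm, where CHR40 has its lowest.

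In the branch that works in RNA-directed DNA methylation, chr31 and CHR40 had unlike patterns. The transcript of chr31 was high in the maternal seed coat and low in the embryo and endosperm, on both of its probe sets. Probe set 263203_at measured 1213 and 737.1 in the chalazal seed coat and 698.9 and 424.4 in the general seed coat, against 59.48 and 185.4 in the cellularized endosperm and 32.59 to 59.14 on the 6 arrays of the embryo proper and the chalazal and micropylar endosperm. Probe set 263204_at measured 1417 and 456.6 in the chalazal and 825.8 and 530 in the general seed coat, and 14.05 to 165.7 on the 8 filial arrays. With either probe set the 4 seed coat arrays lay above all 8 filial arrays, and the share of all probe sets that do so is not given here. In this comparison 16.1% of all probe sets tested were called higher.

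Seed coat against filial compartments, chr31 rose by 3.41 (SE 0.41, adjusted p = 4e-06) on 263203_at and by 3.10 (SE 0.48, adjusted p = 7.22e-05) on 263204_at, which are 10.6-fold and 8.55-fold. Both calls held under every alternative. The chalazal and general seed coat did not differ from each other beyond their spread on 263203_at (0.78, SE 0.66, adjusted p = 0.495) or 263204_at (0.28, SE 0.79, adjusted p = 0.866). The step in the order of levels came below them, where the general seed coat exceeded the next compartment by 2.19 (SE 0.66, adjusted p = 0.0265) on 263203_at and 2.40 (SE 0.79, adjusted p = 0.0412) on 263204_at. These calls were not stable. On 263203_at it ended under 6 of 25 alternatives, among them without cellularized endosperm replicate 1 (1.48, adjusted p = 0.251) or general seed coat replicate 1 or 2 (adjusted p = 0.155 and 0.0556). On 263204_at it ended under 12 of 24, with adjusted p up to 0.261 without micropylar endosperm replicate 1, 0.188 and 0.0927 without general seed coat replicate 1 and 2, 0.0681 without micropylar endosperm replicate 2, and 0.0505 to 0.0536 without any 1 array of the embryo proper or whole seeds. Among the 4 filial compartments neighbours did not differ beyond their spread on either probe set (adjusted p of 0.26 to 0.964).

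Taken singly, the chalazal seed coat rose against the other 5 by 3.19 (SE 0.51, adjusted p = 0.000134) on 263203_at and by 2.64 (SE 0.61, adjusted p = 0.00313) on 263204_at, and the second call ended without chalazal seed coat replicate 1 (adjusted p = 0.122). The general seed coat rose by 2.26 (adjusted p = 0.00458) and 2.31 (adjusted p = 0.0127). Without general seed coat replicate 1 these changes had adjusted p = 0.0938 and 0.152, and without replicate 2 that of 263204_at had 0.0701. On 263203_at the embryo proper (-1.83), micropylar (-1.66) and chalazal endosperm (-1.60) fell against the other 5. The first of these calls ended without embryo proper replicate 1 or 2 (adjusted p = 0.103 and 0.0872), the second without micropylar endosperm replicate 1 or 2 (0.165 and 0.185) and the third without chalazal endosperm replicate 2 (0.177). On 263204_at the chalazal endosperm fell by 1.68 (adjusted p = 0.0342), with arrays at 14.05 and 135.7. That call ended without chalazal endosperm replicate 1 (-0.52, adjusted p = 0.632) and without cellularized endosperm replicate 2, chalazal seed coat replicate 1, general seed coat replicate 1 or micropylar endosperm replicate 2 (adjusted p of 0.0527 to 0.0555).

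CHR40 was low in the chalazal endosperm and high in the embryo proper. It measured 55.06 and 104.7 there, against 937.9 and 1464 in the embryo proper, 923.5 and 604.6 in the cellularized endosperm, 447.9 and 795.8 in the chalazal seed coat, 415.5 and 448.4 in the micropylar endosperm, and 451.4 and 269.5 in the general seed coat. Both chalazal endosperm arrays lay below all 10 arrays of the other compartments. The change against the other 5 was -2.74 (SE 0.40, adjusted p = 2.71e-05), 6.69-fold lower, and held under every alternative. The next compartment up, the general seed coat, was 1.98 higher (SE 0.51, adjusted p = 0.00589), a call that ended without chalazal endosperm replicate 1 (1.60, adjusted p = 0.0581) or general seed coat replicate 1 (1.62, adjusted p = 0.0621), and the neighbours above it did not differ beyond their spread (adjusted p of 0.462 to 0.755). The chalazal step of CHR40 differed between endosperm and seed coat: the difference, -3.79 (SE 0.73, adjusted p = 0.00158), was tested after the values were seen, and 17.6% of all probe sets tested were called in it. Of the 3 control ratios only that of GAPDH was highest on the chalazal endosperm arrays, and the part of RNA quality in this low level was not tested. CHR23 and SWI3A had their highest levels on the same arrays, and the part of RNA quality in those levels was not tested either.

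In the embryo proper both CHR40 arrays lay above every array of the other compartments, and it rose there by 1.68 (SE 0.40, adjusted p = 0.00376), a call that ended without embryo proper replicate 2 (1.36, adjusted p = 0.11). Endosperm against embryo, CHR40 fell by 1.91 (SE 0.42, adjusted p = 0.00279). Without the chalazal endosperm the change was -1.02 (adjusted p = 0.1), and without embryo proper replicate 2 it was -1.59 (adjusted p = 0.0816). Seed coat against filial compartments gave 0.10 (SE 0.31, adjusted p = 0.825).

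CHR34, a less studied member of the same branch, had no called difference. Its general seed coat arrays measured 278.2 and 507.2 and its embryo arrays 42.91 and 100.3, the ends of an order in which no neighbours differed beyond their spread (adjusted p of 0.409 to 0.978). Replicates of CHR34 lay far apart, at 103.2 and 633.2 in whole seeds and 89.36 and 443.4 in the micropylar endosperm. CHR42, or CLSY2, had a probe set of its own but did not pass the filter, with group means of 8.558 to 56.93. Of 29 listed symbols for other genes of RNA-directed DNA methylation 27 matched a RefSeq gene, and 0 of these were paired with a probe set of their own in the gene table, so the pathway is represented here by its remodelers alone.

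DME, the DNA glycosylase that removes DNA methylation in the cell that gives rise to the endosperm, was the only tested gene of the 22 listed symbols for DNA methylation and demethylation. All 3 of its probe sets were lowest in the chalazal endosperm, the compartment where CHR40 was lowest. Means there were 56.35 ± 12.8, 86.02 ± 54.1 and 75.01 ± 36.8 on 250834_at, 250835_at and 250836_at (SD, n = 2 each). In the same order they were 1911 ± 164, 1908 ± 0.255 and 1507 ± 724 in the cellularized endosperm. In the micropylar endosperm they were 1233 ± 37.4, 2166 ± 410 and 1692 ± 287. The part of RNA quality in the low DME levels of the chalazal endosperm was not tested. Against the other 5 compartments the changes of DME were -2.89 (SE 0.38, adjusted p = 9.99e-06), -3.64 (SE 0.37, adjusted p = 5.42e-07) and -3.31 (SE 0.38, adjusted p = 2.03e-06). In the chalazal endosperm 22.9% of all probe sets tested were called lower.

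**Figure D3:**
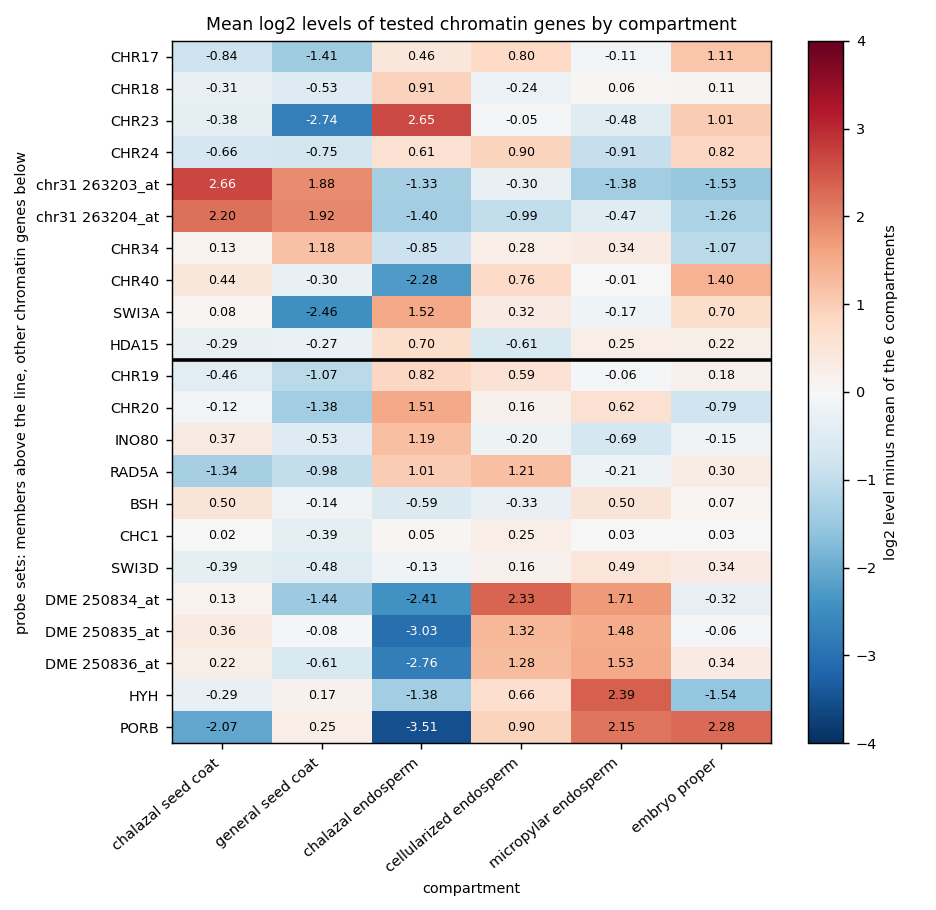
Mean log2 level of each tested probe set in each compartment, less its mean over the 6 compartments, for the 10 probe sets of the 9 genes above the line and 12 of other chromatin and related genes below it. Red is above and blue below the mean. The chalazal endosperm column holds high values of CHR23 (2.65), SWI3A and CHR20 and low values of CHR40 (-2.28) and DME.

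CHR17, the ISWI remodeler, was highest in the embryo proper and lowest in the seed coat. It measured 1710 and 1096 in the chalazal and 1536 and 545.6 in the general seed coat, against 4767 and 5986 in the embryo proper, 3893 and 4745 in the cellularized endosperm, 2842 and 4050 in the chalazal endosperm, and 1774 and 2959 in the micropylar endosperm. All 4 seed coat arrays lay below all 8 filial arrays, and the share of all probe sets that do so is not given here. Seed coat against filial compartments, CHR17 fell by 1.69 (SE 0.26, adjusted p = 6.43e-05), or 3.23-fold, and this held under every alternative. In that comparison 12.9% of all probe sets tested were called lower. No neighbours in the order of the 6 compartments differed beyond their spread (adjusted p of 0.215 to 0.695).

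Against the other 5 compartments CHR17 rose by 1.33 (SE 0.33, adjusted p = 0.00504) in the embryo proper, where both arrays were above all others, and fell by 1.69 (SE 0.33, adjusted p = 0.00133) in the general seed coat. The first call ended without embryo proper replicate 2 (1.17, adjusted p = 0.101) and the second without general seed coat replicate 2 (-0.96, adjusted p = 0.122). The fall in the chalazal seed coat, -1.01 (SE 0.33, adjusted p = 0.0278), lay at the 2-fold limit and ended under 10 alternatives. It was -0.69 (adjusted p = 0.302) without chalazal seed coat replicate 2 and -0.86 without general seed coat replicate 1. The change was -0.94 to -0.98, just short of the limit, without replicate 2 of the embryo proper or of any of the 3 endosperm parts, and adjusted p was 0.0927 with no variance trend. Of 12 listed symbols for ISWI partner genes 5 matched a RefSeq gene, and of 18 for Polycomb genes 15 did. None of these was paired with a probe set of its own in the gene table, so their levels are unknown here.

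CHR24, a remodeler whose RefSeq synonyms include ERCC6 and RAD26, names from DNA repair in other organisms, had its 6 lowest compartment arrays in the seed coat and micropylar endosperm. It measured 111.3 and 69.7 in the chalazal and 88.68 and 76.55 in the general seed coat, against 262.6 and 287.8 in the embryo proper, 269.7 and 314.4 in the cellularized endosperm, 294.6 and 187.3 in the chalazal endosperm and 70.47 and 73.24 in the micropylar endosperm. The micropylar arrays thus overlapped with the seed coat arrays. The fall in the seed coat against filial compartments was 1.06 (SE 0.37, adjusted p = 0.0345) and ended under 12 of 25 alternatives. Among these were leaving out either embryo proper, general seed coat or micropylar endosperm array, cellularized endosperm replicate 2, chalazal endosperm replicate 1 or chalazal seed coat replicate 2, with adjusted p of 0.0503 to 0.111, and using all probe sets without a filter (0.0614). No neighbours in its order differed beyond their spread (adjusted p of 0.126 to 0.958).

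CHR18, of the SMARCAL1 group of annealing helicases, varied little among compartments and was not called in any of the 6. Its chalazal endosperm arrays, 553.5 and 348.8, lay above those of every other compartment, which ran from 131.2 to 277.5, and the change of 1.09 (SE 0.44) had an adjusted p of 0.0567. Its general seed coat arrays, 131.2 and 176, lay below all others (-0.64, adjusted p = 0.366).

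Of 56 listed symbols for other SNF2 genes, 25 matched a RefSeq gene and 4 genes had a tested probe set: CHR19, an ETL1-type remodeler, CHR20, the plant ATRX, INO80 and RAD5A, which acts in tolerance of DNA damage. All 4 passed limma's F test, as did 63.5% of all probe sets tested. In the chalazal endosperm 3 of the 4 were called higher, where 15.8% of all probe sets tested were. CHR20 averaged 5273 ± 732 there and 2841 ± 464 in the next compartment, the micropylar endosperm (SD, n = 2 each), with a rise of 1.81 (SE 0.33, adjusted p = 0.000297) against the other 5. INO80 averaged 1993 ± 35.2 there and 1130 ± 143 in the chalazal seed coat (SD, n = 2 each), a rise of 1.43 (SE 0.34, adjusted p = 0.00273). RAD5A averaged 674.9 ± 186 in cellularized endosperm and 578.8 ± 129 in chalazal endosperm (SD, n = 2 each), and its rise against the other 5 was larger in the cellularized part, at 1.46 (SE 0.44, adjusted p = 0.0291). That call ended without cellularized endosperm replicate 1 (1.74, adjusted p = 0.0958) or 2 (1.18, adjusted p = 0.258) or embryo proper replicate 2 (1.39). Seed coat against filial compartments, RAD5A fell by 1.74 (SE 0.35, adjusted p = 0.00083), a call that held under every alternative. Its rise in the chalazal endosperm, 1.21 (SE 0.44, adjusted p = 0.0361), ended without either chalazal endosperm array (adjusted p = 0.255 and 0.0905), embryo proper replicate 2 (0.0586), cellularized endosperm replicate 1 (0.0544) or micropylar endosperm replicate 1 (0.0568), and with no filter (0.0546).

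In the general seed coat CHR20 fell by 1.65 (SE 0.33, adjusted p = 0.00184) and CHR19 by 1.29 (SE 0.39, adjusted p = 0.0299), 2 of the 4, where 5.69% of all probe sets tested were called lower. CHR19 lost its call when general seed coat replicate 1 (-0.86, adjusted p = 0.323), replicate 2 (-1.71, adjusted p = 0.0505) or the chalazal endosperm (-1.14, adjusted p = 0.0664) was left out.

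HDA15 differed little among compartments and was not called in any of the 6. Its arrays measured 921.6 and 1222 in the chalazal endosperm, 379.8 and 457 in the cellularized endosperm, 512.4 and 1118 in the embryo proper and 378.5 and 748.4 in the general seed coat. It was higher in the chalazal than in the cellularized endosperm by 1.32 (SE 0.50, adjusted p = 0.0497), the only pair of compartments in which it was called. The call ended under 13 of 24 alternatives, among them without any 1 array of the cellularized, chalazal or micropylar endosperm (adjusted p of 0.0619 to 0.207). In the chalazal endosperm its change against the other 5 was 0.84 (SE 0.38, adjusted p = 0.0882). Of 30 listed symbols for other histone deacetylases 1 gene was paired with a probe set of its own in the gene table, HDA7, which did not pass the filter. From the list of HDA15's light-signalling partners and of chlorophyll genes 2 of 21 symbols had a tested probe set. PORB, an enzyme of chlorophyll synthesis, averaged 56.51 ± 50.2 in the chalazal endosperm and 3477 ± 259 in the embryo proper (SD, n = 2 each), and fell by 4.21 (SE 0.37, adjusted p = 9.46e-08) in the chalazal endosperm against the other 5. HYH, a bZIP factor related to HY5, was highest in the micropylar endosperm, at 1283 ± 372 (SD, n = 2), a rise of 2.87 (SE 0.59, adjusted p = 0.002) whose call ended without micropylar endosperm replicate 1 (adjusted p = 0.0745).

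The 6 compartments were averaged with equal weight, not by their share of the seed, and whole seeds were compared with that mean. In such bulk samples fewer cells of a type and less RNA per cell cannot be told apart. Any weighted mean of the compartment levels lies within their range. Of the 10 probe sets 8 had at least 1 whole-seed array within the range of the 12 compartment arrays, and 2 did not. CHR18 measured 38.63 and 30.77 in whole seeds and at least 131.2 on every compartment array, a fall of 2.26 (SE 0.44, adjusted p = 0.00247). HDA15 measured 1223 and 2674 in whole seeds and 378.5 to 1222 on the compartment arrays, so that its lower whole-seed array lay just above the highest compartment array. Over all probe sets tested, both whole-seed arrays lay below the compartments in 1.72% and above them in 1.81%. The whole-seed arrays had the highest array medians, 183 and 179, and the lowest GAPDH ratios, 3.17 and 2.72. Their actin ratios, 14.81 and 9.69, were within the range of the other arrays. The part of such array differences in the whole-seed levels of CHR18 and HDA15 was not tested.

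The rise of HDA15 was 1.46 (SE 0.38, adjusted p = 0.0174) and ended without whole seeds replicate 2 (0.90, adjusted p = 0.446), with arrays scaled to equal medians (1.04, adjusted p = 0.107) and with no variance trend (adjusted p = 0.0535). The fall of CHR18 lost its call without whole seeds replicate 2 (-2.15, adjusted p = 0.0675). CHR23 fell by 1.46 in whole seeds (SE 0.33, adjusted p = 0.00681), at 625.4 and 306.8, within the compartments' range. That call ended without whole seeds replicate 2 (-0.96, adjusted p = 0.287) and without the chalazal endosperm (-0.93, adjusted p = 0.129). Of the whole-seed comparison's calls over all probe sets 71.3% were higher as deposited, against 32.2% with equal medians.

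**Figure D4:**
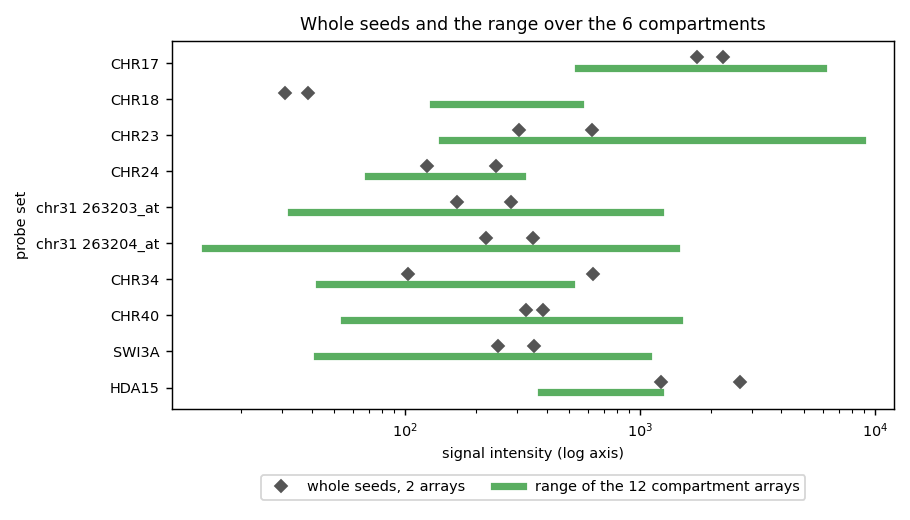
Signal intensity (log axis) of the 10 probe sets, with diamonds for the 2 whole-seed arrays and a bar for the range over the 12 compartment arrays. CHR18 lies below its bar, at 30.77 and 38.63, and HDA15 at and above the upper end of its bar.

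Both arrays of the chalazal endosperm lay above every array of the other 5 compartments for 3 of the 10 probe sets, those of CHR18, CHR23 and SWI3A, and for 12.3% of all probe sets tested. The same 3 genes had both general seed coat arrays below every other, which held for 2.65% of all, though CHR18 was not called there. Because the members were chosen with earlier results of these data known, these shares and those below are descriptive and do not test an excess. Both embryo arrays lay above every other for 2, CHR17 and CHR40 (10.2% of all), both chalazal seed coat arrays for 1, chr31 on 263203_at (7.3%), and both chalazal endosperm arrays below every other for 1, CHR40 (10.9%).

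By comparison, 5 of the 10 probe sets were called in the chalazal endosperm, where 38.7% of all probe sets tested were. In the general seed coat 5 were called, 2 of them the probe sets of chr31, where 16% of all were. In the embryo proper 4 were called (28.4% of all), in the chalazal seed coat 3 (26.2%), in the micropylar endosperm 1 (18% of all) and in the cellularized endosperm 0 by limma (16.5% of all). There 3 had an unadjusted p below 0.05, with adjusted p of 0.0532 to 0.127. The share of all probe sets with such an unadjusted p is not given here. Seed coat against filial compartments 6 were called (28.9% of all), 2 higher (16.1% of all) and 4 lower (12.9% of all), in endosperm against embryo 1 (24.3% of all), and in whole seeds 3 (9.74% of all). The median change of the 10 was 0.64 in the chalazal endosperm and -0.50 in the general seed coat, against -0.12 and -0.01 over all probe sets tested. With equal medians the share of higher calls over all probe sets was 47.8% in the general seed coat, against 64.5% as deposited, 50.8% against 40.7% in the chalazal endosperm, 65.1% against 49.5% in the cellularized endosperm and 42% against 55.5% in seed coat against filial compartments.

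Patterns over the 14 arrays were also set against 1203 other tested probe sets that name 1 gene by a symbol, 1202 for chr31, as Pearson r of log2 levels on arrays that share RNA, scaling and quality. Closest to CHR23 were SWI3A (0.895) and ZYP1b, a synaptonemal complex protein (0.893), and closest to SWI3A were CHR23 (0.895) and ZYP1b (0.87). Those closest to CHR17 were HTB1, a histone H2B (0.843), and AUR3, an Aurora kinase of mitosis (0.832), and to CHR24 they were AUR3 (0.844) and UBP21 (0.822). For CHR40 they were NAC014 (0.921) and iqd32 (0.889), and for CHR18 ATLIG4, a DNA ligase (0.882), and CUL4, a cullin (0.867). The 2 probe sets of chr31 named different genes, FAAH (0.914) and IAA31 (0.912) for 263203_at and GILT (0.908) and TET2 (0.899) for 263204_at. The nearest genes of CHR34, TBL30 (0.756) and HWS (0.746), and of HDA15, PUB26 (0.786) and WES1 (0.728), had lower values. With each other the chr31 probe sets had r of 0.88 and rho of 0.74 over 14 arrays, and r of 0.58 and rho of 0.31 over the 10 arrays outside the seed coat parts.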

How the data were processed

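The values the authors deposited are linear signal intensities, 1 for each probe set and array. GCOS is named in the submitters' processing notes, with no version, and the authors had scaled each array: the mean without the lowest and highest 2% of probe sets was 500 on all 14. Genome build and detection calls are not given in the sources used here, and no positions are printed. From these intensities log2(value + 16) was computed. Without the 64 controls, 15951 probe sets reached the median of their array on 2 or more arrays and were tested. The platform's gene table gave the names: 13513 probe sets name 1 gene, 503 several and 8794 none, and 13436 matched RefSeq (TAIR10.1).

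limma 3.58.1 in R 4.3.3 was fitted with 1 mean per group over all 14 arrays (7 residual degrees of freedom) and a variance trend. P-values are two-sided and adjusted within each comparison over all probe sets tested. Each compartment was set against the other 5. Also compared were seed coat against filial compartments, endosperm against embryo, whole seeds against compartments and the 15 pairs. The comparisons of a compartment with the other 5 share group means and are not independent. All 9 genes are named, with chromatin-list genes called in a compartment (at most the 4 largest per list and comparison), untested or uncalled list genes where a count was 5 or fewer, and the 2 most like genes of each. Members and lists were chosen with earlier results of these data known. Of 221 listed chromatin symbols 148 matched a RefSeq gene, 12 genes were paired with a probe set of their own in the gene table, and 10 genes were tested. The fit was tested on simulated data. Alternatives were other pseudocounts, filters, scalings and variance models, a replicate block and leaving out arrays or groups.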

Additional observations from a re-analysis of the deposited data

Results flagged for a closer look

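The chalazal difference of CHR40 was not the same in endosperm and seed coat. Chalazal minus cellularized endosperm was -3.04 (adjusted p = 0.000171) and chalazal minus general seed coat was 0.75 (adjusted p = 0.378). The difference between these, -3.79 (SE 0.73, adjusted p = 0.00158 by limma), was called, and was -4.2 to -3.2 under 24 alternatives with adjusted p up to 0.0109. This test was chosen after the values were seen, and 17.6% of all probe sets tested were called in it. Of the 10 probe sets only that of CHR40 was. CHR23 had 2.70 in endosperm and 2.36 in seed coat, with a difference of 0.34 (SE 0.61, adjusted p = 0.757), and SWI3A had 1.19 and 2.54, with a difference of -1.34 (SE 0.74, adjusted p = 0.23). The 3 probe sets of DME had differences of -6.32, -4.79 and -4.87.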

How the results depend on the processing

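Outside the pairs of compartments, 12 of 29 called results of the 9 genes kept their direction and call under every alternative run and none changed sign. Of 48 called pairs the 11 between neighbours in the order or within endosperm or seed coat were rerun: 6 kept their call, none changed sign, and the others were not rerun. With the replicate block all 29 calls stood, of the 11 pairs that of HDA15 ended (1.32, adjusted p = 0.0516), and counts of called probe sets were as without it, 5 in the chalazal endosperm and 7 by the F test. Replicate numbers did not pair the arrays: differences between replicates correlated from -0.111 to 0.146 over 21 pairs of groups, with 1 above 0.1. The cellularized endosperm had 1 call with equal medians and 1 without the chalazal endosperm, against 0, and the micropylar endosperm had 2 with no variance trend, against 1. Apart from leaving out single arrays, counts were 4 to 6 in the embryo proper, against 4, and 5 to 7 in the chalazal endosperm, against 5, with 6 and 7 reached without the chalazal endosperm and with equal medians. Leaving out 1 array at a time, the F test called 6 to 7 of the 10, and calls were 0 to 5 in the embryo proper, 0 to 1 in the micropylar, 0 to 1 in the cellularized and 4 to 5 in the chalazal endosperm, 2 to 3 in the chalazal and 3 to 5 in the general seed coat, 5 to 6 in seed coat against filial compartments, 0 to 1 in endosperm against embryo and 0 to 3 in whole seeds. The 0 in the embryo proper came without its replicate 2 and the 0 in whole seeds without replicate 2, and a group left with 1 array was assumed to vary like the others. Leaving out the micropylar endosperm and whole-seed arrays together was added after seeing the data. Low signals depend on the pseudocount. The cause of these changes was not tested beyond the smaller number of arrays.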
